A study of Mus musculus with 8 samples.

Results

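Genes whose symbols mark them as proteasome genes were followed in mouse medial prefrontal cortex (mPFC). They were taken from probe sets with a single gene symbol that starts with Psma to Psmg and a digit, without Psmb8, Psmb9 and Psmb10, which code for the interferon-inducible core subunits. A gene with several such probe sets was represented by the one that was brightest on average. This gave 46 of the 22180 named genes. The rule itself used no measured difference between groups, but the set was chosen with earlier results of these data known. A level entered where a gene had several probe sets, which was so for 3 genes.

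The mice carried a ribosome tag of green fluorescent protein (GFP) that Cre recombinase switches on. CAV2-Cre, a canine adenovirus that brings Cre and travels back along axons, was injected in NAC or in VTA, and the mPFC was taken. Pull-down RNA was bound to ribosomes caught with GFP-trap, a GFP-binding reagent, and input RNA was not purified. The labels give 4 groups of 2 arrays: NAC pull-down, NAC input, VTA pull-down and VTA input. All 4 groups share the tagged strain and the virus, and no group was left without injection. The name of the mouse line, age, sex, the promoter behind the tag and any pooling of animals are not stated. The tag depends on Cre brought by the virus. Whether the promoter behind the tag also limits which cells carry it is not stated. Nothing in the labels traces the arrays of a group to different mice, so p-values here reflect the scatter between these samples alone, which may be technical.

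The proteasome is the large protease that degrades proteins tagged with ubiquitin. Its core particle is a barrel of alpha rings, which gate the entrance, around beta rings, which hold the active sites. The regulatory particle caps the barrel: ATPases of its base unfold the substrate and feed it in, other base subunits bind ubiquitin, and the lid removes the ubiquitin chain. Other activators open the barrel without the lid, and chaperones assemble the parts and leave the finished complex. In neurons the proteasome is known for its part in synaptic plasticity and protein quality control.

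The 46 genes comprised 13 core particle genes, 17 regulatory particle genes and 16 others. The last held 4 activators, 1 inhibitor, 7 assembly chaperones, Psma8 and Psmb11, core subunits known from testis and thymus, and Psmc3ip and Psme3ip1, which bear the name of a proteasome gene's partner and are not subunits. The name constitutive is not apt for all of them, since Psme1 and Psme2 code for an activator known to be raised by interferon. Psma4, the remaining alpha subunit gene, was not included because its probe sets carry a second symbol. Genes went into the tests when at least 2 arrays were brighter than the typical named gene on the same array, that is the median, and 42 of the 46 passed. Psma5, Psma8, Psmb11 and Psmg4 were too dim. The 42 include 12 core genes, all 17 regulatory genes and 13 others.

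Levels are log2 values as deposited, and a difference of 1 is a doubling. Measured against the median of all probe sets of the same array, the mean level ran from -0.78 for Psma5 to 4.88 for Psmb7. Psmb7, Psmb1, Psmd7, Psmd8 and Psma3 all had means more than 4.5 above the array median. The probe sets differ in sequence, so levels of different genes on this scale are not a ranking of transcript abundance, and each gene is compared only with itself. Across the 8 arrays a single gene ranged over as little as 0.20 for Psmd11, a lid subunit, and as much as 1.30 for Psmd5, an assembly chaperone.

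**Figure D1:**
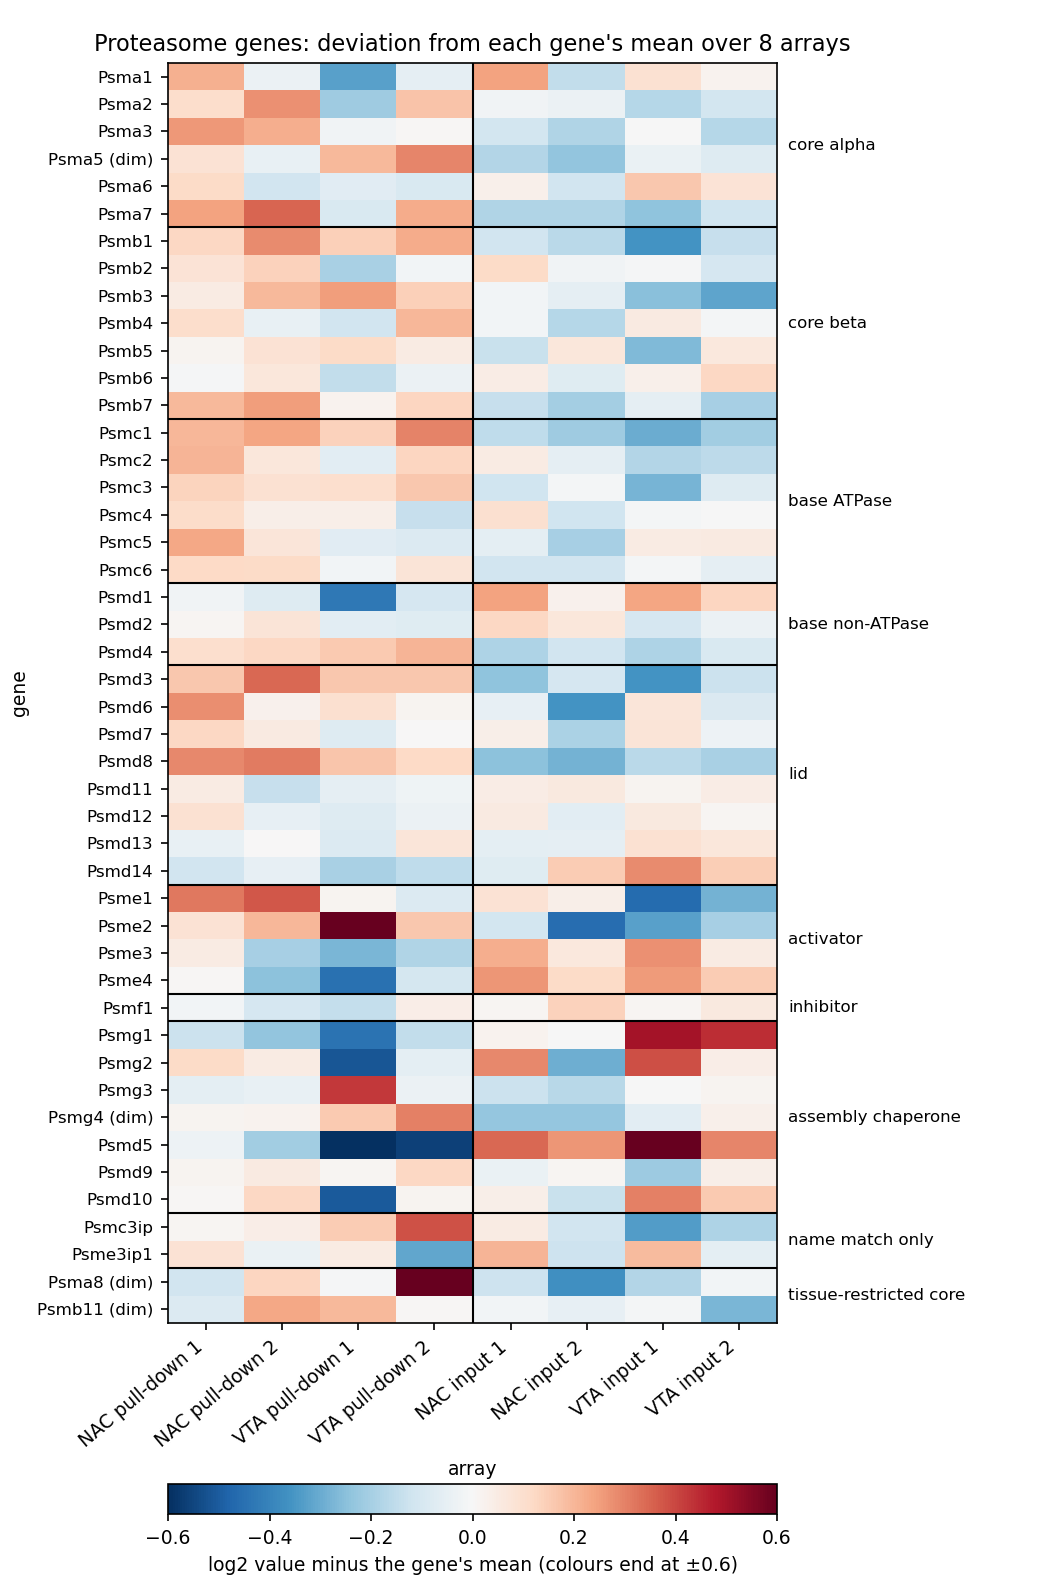
Each row is 1 of the 46 genes, ordered by class, and each column 1 of the 8 arrays; the colour is the log2 value minus that gene's mean over the 8 arrays. Psmd8, Psmc1 and Psme2 were above their means in the pull-downs, while Psmd5 and Psmg1 were below them.

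As a whole, array medians lay between 5.08 and 5.22, and arrays correlated at 0.981 to 0.991 within groups and at 0.973 to 0.988 between groups over all probe sets. Rpl10a, a ribosomal protein of the large subunit, was 1.49 higher in pull-down than input on the log2 scale (SE 0.10, limma adjusted p 4.12e-05). Markers of glia were lower in the pull-downs: all 8 of 8 oligodendrocyte genes, 7 of 8 microglial genes and 6 of 7 astrocyte genes passed the test. The mean level of the oligodendrocyte markers was 9.002 to 9.127 in the pull-downs and 9.50 to 9.75 in the inputs, so glial RNA was reduced but still measured. Among the other lists, 7 of 9 interneuron markers and 3 of 6 endothelial markers were lower, and 1 of 7 markers of glutamatergic neurons was higher and 3 were lower. Of all genes tested, 9.6% were higher and 32% lower. For layer 5 pyramidal tract cells, 4 of 6 markers were higher as a mean of both targets. Within NAC 1 of 6 was higher, with a median of -0.060, and within VTA 4 of 6, with a median of 0.44. The part of these shifts in the proteasome results was not tested. In such bulk RNA, fewer cells of a type and less RNA per cell cannot be told apart.

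Pull-down RNA was compared with input RNA, averaged over both targets, to see which proteasome transcripts were enriched on the tagged ribosomes. Of the 42 genes tested, 13 were higher and 6 lower at a limma adjusted p (Benjamini-Hochberg) under 0.05. One of the 13, Psmc3ip, passed the filter on dim genes only through arrays where it was high, and a stricter filter that asked for 4 arrays left 41 genes, 12 higher and 6 lower. Of all 11712 genes tested, 9.6% rose and 32% fell. The lid gene Psmd8 and the base ATPase gene Psmc1 rose by 0.44 each, and the assembly chaperone genes Psmd5 and Psmg1 fell by 0.75 and 0.48. The median difference of the 42 genes was 0.075, against -0.11 for all genes. Of the 42, 25 lay above 0 (32.7% of all genes did) and 34 lay above the all-gene median, which by its nature 50% of all genes did.

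In 10 genes every pull-down lay above every input (7.91% of all genes), and in 5 every pull-down lay below (24.8% of all genes). The zero of this scale depends on how the arrays are set level. Centring each array on all its probe sets put the all-gene median at -0.16, quantile normalization at -0.047, and centring on the genes tested at 0.026. As deposited, the median of the proteasome genes lay 0.19 above that of all genes. Centring moves every gene of an array alike, so it cannot change this gap. Quantile normalization could, and the gap stayed at 0.19. Of the calls, 10 of the 13 rises and 3 of the 6 falls, those of Psmd5, Psmg1 and Psme4, held under all 3 scalings and after leaving out each array in turn.

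**Figure D2:**
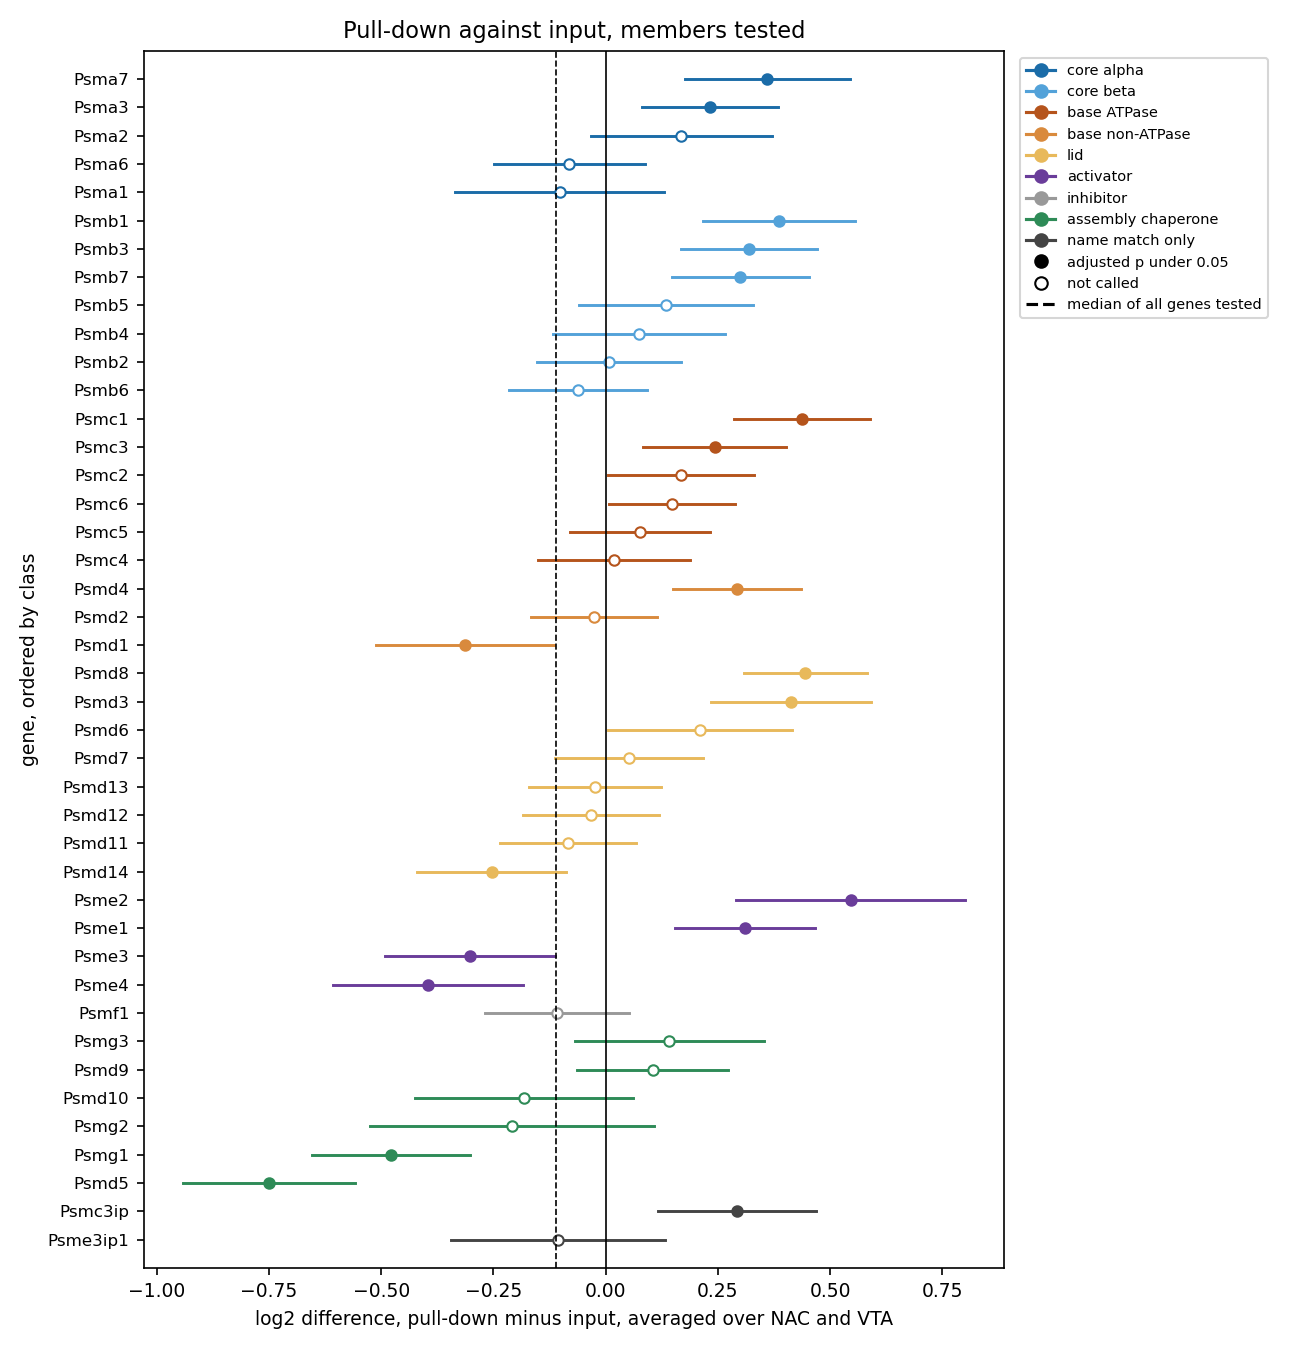
Points show, for the 42 genes tested, how far pull-down exceeded input in log2 units as a mean of NAC and VTA, bars are 95% confidence intervals of the limma fit, and the dashed line is the median of all genes. Psme2 at 0.55 is the highest point and Psmd5 at -0.75 the lowest.

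Among the core genes, 5 of 12 rose and none fell by limma's adjusted p, beside 9.6% and 32% of all genes. The median difference was 0.15, against -0.11 for all genes. An unadjusted p under 0.05, in either direction, was found for 5 of 12 (50.7% of all genes). Psmb7 codes for the beta subunit with trypsin-like activity. It measured 10.24 and 10.29 in the NAC pull-downs, 10.06 and 10.17 in the VTA pull-downs, 9.90 and 9.84 in the NAC inputs, and 9.98 and 9.84 in the VTA inputs. All 4 pull-downs lay above all 4 inputs, and the rise was 0.30 (SE 0.069, adjusted p 0.00759).

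Both other catalytic subunits missed the threshold. Psmb5, the subunit with chymotrypsin-like activity and the main target of proteasome inhibitors, measured 8.84 and 8.91 in the NAC pull-downs, 8.94 and 8.87 in the VTA pull-downs, 8.69 and 8.89 in the NAC inputs, and 8.56 and 8.89 in the VTA inputs. Each input group held 1 low and 1 high array, so the groups overlapped, and the difference was 0.13 with a 95% interval from -0.060 to 0.33 (adjusted p 0.239). Psmb6, the subunit with caspase-like activity, measured 8.23 and 8.31 in the NAC pull-downs, 8.09 and 8.20 in the VTA pull-downs, 8.28 and 8.16 in the NAC inputs, and 8.27 and 8.36 in the VTA inputs. Its groups overlapped too, and the difference was -0.061 with an interval from -0.21 to 0.092 (adjusted p 0.494), turning to 0.014 after quantile normalization and 0.074 with centring on the genes tested. Whether Psmb7 differs from Psmb5 and Psmb6 in enrichment was not tested.

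The non-catalytic beta subunits gave the largest rise of the core. Psmb1 rose by 0.39 (SE 0.076, adjusted p 0.00389), with pull-downs at 10.07 to 10.23 and inputs at 9.59 to 9.83. Psmb3 rose by 0.32 (adjusted p 0.00562), from inputs of 5.87 to 6.16, close to the median of the named genes, to pull-downs of 6.23 to 6.43. Neither overlapped between pull-down and input. Psmb2 and Psmb4 differed by 0.0075 and 0.074, neither past the threshold.

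In the alpha ring, Psma7 rose by 0.36 (SE 0.083, adjusted p 0.00764). It measured 9.36 and 9.47 in the NAC pull-downs, 9.03 and 9.35 in the VTA pull-downs, 8.94 and 8.95 in the NAC inputs, and 8.89 and 9.01 in the VTA inputs. The first VTA pull-down lay just above the highest input. Psma3 rose by 0.23 (adjusted p 0.0212), but its pull-downs and inputs overlapped. The call was lost on removing NAC pull-down 1 (0.22), NAC input 2 (0.21) or VTA input 2 (0.19). With centring on all probe sets Psma3 did not pass either (0.18, limma adjusted p 0.0981). Psma2 at 0.17, Psma6 at -0.082 and Psma1 at -0.10 did not pass.

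Of the regulatory genes, 5 of 17 rose and 2 fell, beside 9.6% and 32% of all genes. Their median was 0.077, against -0.11 for all genes. The base ATPases were all above 0 as deposited, although Psmc4 by less than the shift between scalings, and 2 of 6 passed. Psmc1, one of these ATPases, measured 9.81 and 9.85 in the NAC pull-downs, 9.75 and 9.91 in the VTA pull-downs, 9.46 and 9.40 in the NAC inputs, and 9.32 and 9.41 in the VTA inputs. The lowest pull-down stood clear of the highest input, and the rise was 0.44, or 1.35-fold (SE 0.068, adjusted p 0.00145). Psmc3 rose by 0.24 (adjusted p 0.022), without overlap. It lost the call on removing NAC pull-down 1 (0.23), the first NAC input (0.22) or the first VTA input (0.19). With centring on all probe sets Psmc3 did not pass either (0.19, limma adjusted p 0.101).

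For Psmc2, also a base ATPase, the probe sets disagreed. The brighter one measured 9.18 and 9.04 in the NAC pull-downs, 8.91 and 9.10 in the VTA pull-downs, 9.02 and 8.92 in the NAC inputs, and 8.80 and 8.82 in the VTA inputs. These overlap, and the difference of 0.17 (SE 0.073) missed the threshold (adjusted p 0.0894). The dimmer one measured 7.17 and 7.36 in the NAC pull-downs, 7.21 and 7.46 in the VTA pull-downs, 6.32 and 6.69 in the NAC inputs, and 6.36 and 6.74 in the VTA inputs. It did not overlap and differed by 0.77 (SE 0.11, adjusted p 0.00121), so the size of any enrichment of Psmc2 depends on the probe set. Psmc4, Psmc5 and Psmc6 differed by 0.019, 0.077 and 0.15 and did not pass.

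The non-ATPase subunits of the base went different ways. Psmd4, a ubiquitin receptor, rose by 0.29 (SE 0.064, adjusted p 0.0063), with pull-downs at 8.49 to 8.59 above inputs at 8.20 to 8.30. Psmd1, a scaffold subunit, fell by 0.31 (SE 0.089, adjusted p 0.0189), with pull-downs at 8.57 to 8.98 below inputs at 9.02 to 9.24. The fall of Psmd1 passed no longer without the second NAC pull-down (-0.30), the first VTA pull-down (-0.23), the first NAC input (-0.26) or the first VTA input (-0.29). With centring on the genes tested it did not pass either (-0.18, limma adjusted p 0.0935). Psmd2, the other large scaffold, differed by -0.026.

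In the lid, Psmd8 and Psmd3 rose, Psmd14 fell and the other 5 genes did not pass. The lid median was 0.014, and it turned to -0.035 when arrays were centred on all probe sets. Psmd8 measured 10.13 and 10.14 in the NAC pull-downs, 10.003 and 9.957 in the VTA pull-downs, 9.59 and 9.55 in the NAC inputs, and 9.67 and 9.64 in the VTA inputs. Replicates lay close together and far from the other RNA, and the rise was 0.44, or 1.36-fold (SE 0.062, adjusted p 0.000943).

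Psmd3 is a structural subunit of the lid. It measured 8.77 and 8.95 in the NAC pull-downs, 8.77 in both VTA pull-downs, 8.37 and 8.51 in the NAC inputs, and 8.25 and 8.48 in the VTA inputs. Pull-downs and inputs were apart, with a rise of 0.41 (SE 0.080, adjusted p 0.00369). Psmd14, the deubiquitinase of the lid, fell by 0.25 (SE 0.075, adjusted p 0.0218), with overlap between pull-downs at 7.25 to 7.40 and inputs at 7.37 to 7.73. That call was lost on removing NAC pull-down 1 (-0.24), NAC input 2 (-0.20) or VTA input 1 (-0.22). The fall depended on the scaling as well. It was -0.155 after quantile normalization (limma adjusted p 0.135) and -0.119 with centring on the genes tested (0.256), without a call.

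**Figure D3:**
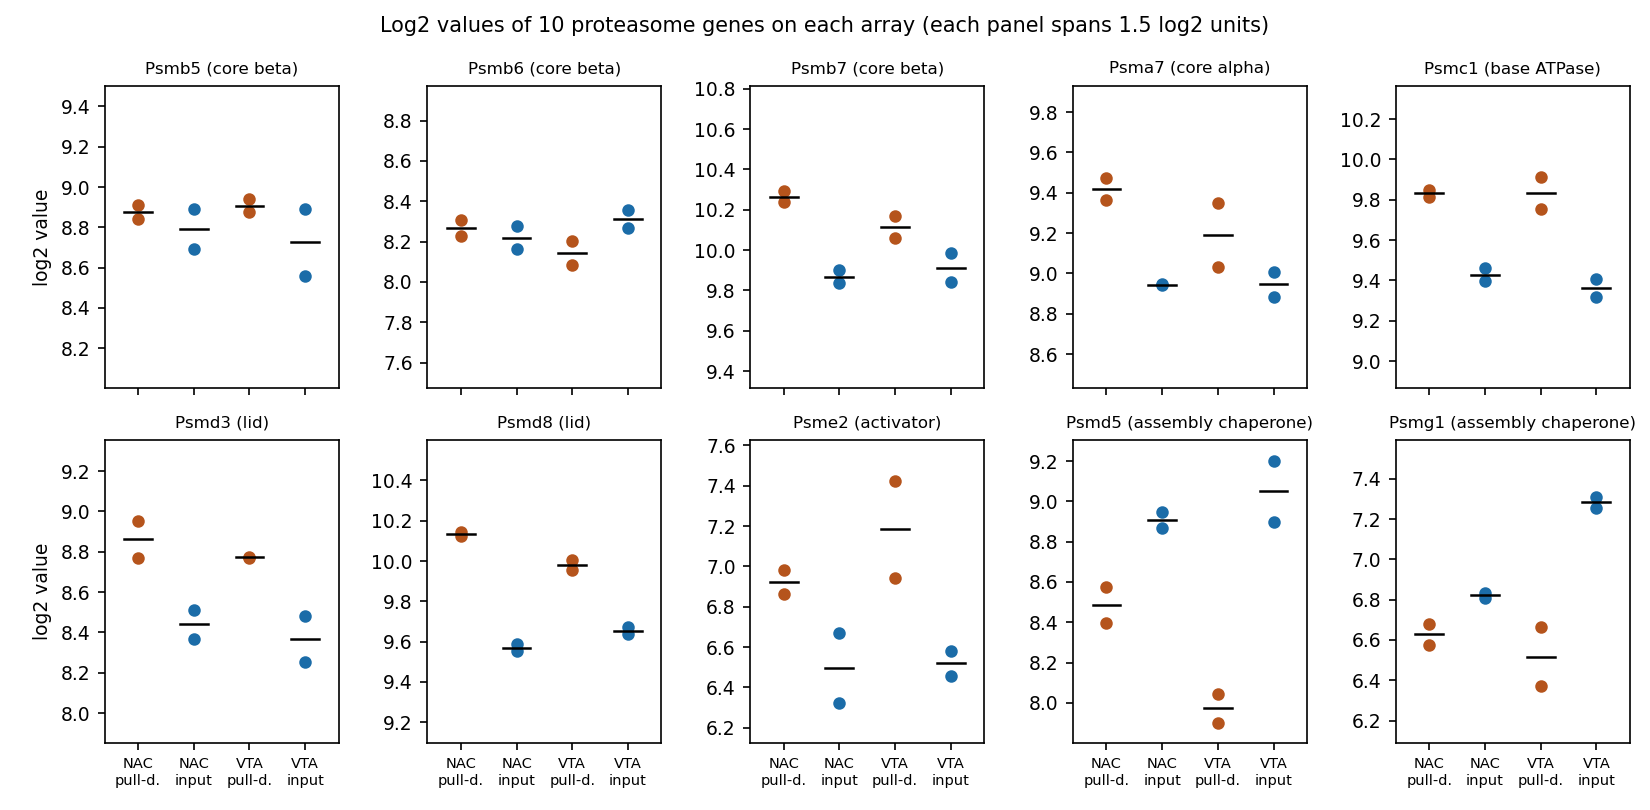
Each point is 1 array and each bar the mean of 2 arrays, in log2 units, for 10 genes; orange marks pull-downs and blue inputs, and every panel spans the same 1.5 log2 units. Psmd8 and Psmc1 separate pull-down from input for both targets, Psmb5 and Psmb6 do not, and Psmd5 and Psmg1 lie lower in the pull-downs.

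The core and the regulatory particle were then set against each other. Every gene was first expressed as its deviation from its mean over the 8 arrays. In the NAC pull-downs the core median was 0.14 ± 0.040 (SD, n = 2) and the regulatory median 0.094 ± 0.038. Both were near 0 in the VTA pull-downs, at 0.0055 ± 0.12 and -0.018 ± 0.049. In the NAC inputs they were -0.074 ± 0.080 and -0.078 ± 0.031, and in the VTA inputs -0.069 ± 0.053 and -0.025 ± 0.017. The median deviation of all genes tested was 0.0001 and -0.058 on the NAC pull-downs, and -0.11 and -0.032 on the VTA pull-downs. It was 0.040 and 0.0095 on the NAC inputs, and 0.086 and 0.073 on the VTA inputs. For both targets, the core and regulatory medians lay above it on every pull-down and below it on every input.

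Core minus regulatory was 0.045 ± 0.078 in the NAC pull-downs, 0.024 ± 0.070 in the VTA pull-downs, 0.0034 ± 0.049 in the NAC inputs and -0.043 ± 0.036 in the VTA inputs. The core and regulatory medians thus ran side by side across the groups, and core minus regulatory lay between -0.043 and 0.045 beside SDs of 0.036 to 0.078. No p-value is given for such a median over chosen genes.

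**Figure D4:**
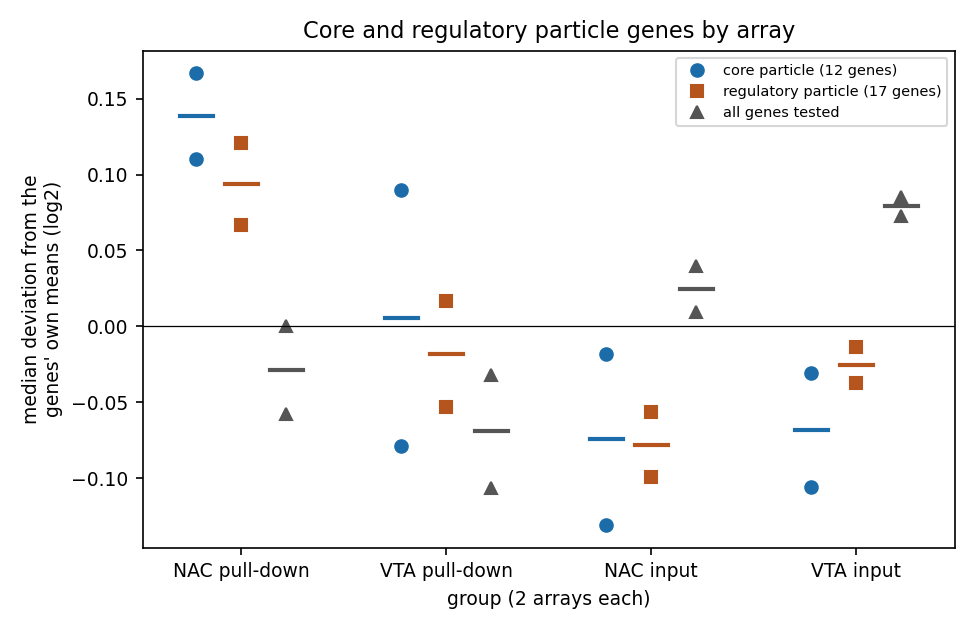
For each array, the median deviation of the 12 core genes and of the 17 regulatory genes from their 8-array means is plotted in log2 units, by group. Triangles show the same for all genes tested. Core and regulatory values run side by side over the groups, with the widest gap on NAC pull-down 2 (core 0.17, regulatory 0.067).

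Among the activators, both subunits of the 11S activator rose and both other activator genes fell. Psme2, the beta subunit of the 11S ring, measured 6.87 and 6.98 in the NAC pull-downs, 7.43 and 6.94 in the VTA pull-downs, 6.67 and 6.32 in the NAC inputs, and 6.46 and 6.58 in the VTA inputs. The first VTA pull-down was the highest, and no pull-down overlapped an input. The rise of 0.55, or 1.46-fold, had an SE of 0.11 (adjusted p 0.00529).

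Psme1, the alpha subunit of the same ring, rose by 0.31 (SE 0.070, adjusted p 0.00706). Its pull-downs and inputs overlapped across targets: 9.51 and 9.56 in the NAC pull-downs, 9.21 and 9.11 in the VTA pull-downs, 9.28 and 9.23 in the NAC inputs, and 8.73 and 8.91 in the VTA inputs. Within each target both pull-downs were above both inputs. Psme4, a large single-chain activator, fell by 0.40 (SE 0.095, adjusted p 0.00917). Psme3, which forms a nuclear activator ring, fell by 0.30 (adjusted p 0.0183). It lost the call without the second NAC pull-down (-0.24), the first NAC input (-0.26) or the first VTA input (-0.25). With centring on the genes tested Psme3 did not pass either (-0.17, limma adjusted p 0.0979). The inhibitor gene Psmf1 differed by -0.11 (adjusted p 0.246).

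Of the 6 assembly chaperone genes tested among the 42, 2 fell, a share near the 32% of all genes, and they were the 2 largest falls of the 42. None rose by limma's adjusted p as deposited, where only those 2 had an unadjusted p under 0.05, and 1 rose with centring on the genes tested. Psmd5, a chaperone of the base that is not in the finished proteasome, measured 8.57 and 8.40 in the NAC pull-downs, 7.90 and 8.04 in the VTA pull-downs, 8.95 and 8.87 in the NAC inputs, and 9.20 and 8.90 in the VTA inputs. The VTA pull-downs were the lowest, the NAC pull-downs came next, and every input was higher. The fall of 0.75 on the log2 scale (SE 0.086, adjusted p 0.000409) left the input 1.68-fold above the pull-down.

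Psmg1, which helps to build the alpha ring, measured 6.68 and 6.58 in the NAC pull-downs, 6.37 and 6.66 in the VTA pull-downs, 6.83 and 6.81 in the NAC inputs, and 7.31 and 7.26 in the VTA inputs. It fell by 0.48 (SE 0.079, adjusted p 0.0018), and the VTA inputs stood above the NAC inputs. Psmg2, the partner of Psmg1, differed by -0.21 and Psmd10, another base chaperone, by -0.18, neither past the threshold. Psmd9 and Psmg3 differed by 0.10 and 0.14, also without a call.

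Psmc3ip takes part in meiotic recombination and binds the product of Psmc3. Its level exceeded the median of the named genes on 2 arrays only, the VTA pull-downs, so it was tested only because of the group where it was high, and its differences are given as a description. It measured 5.77 and 5.79 in the NAC pull-downs, 5.90 and 6.13 in the VTA pull-downs, 5.80 and 5.64 in the NAC inputs, and 5.42 and 5.57 in the VTA inputs. The first NAC input lay above both NAC pull-downs. The averaged difference was 0.29 (SE 0.079), and its call was lost on removing NAC input 2 (0.25, adjusted p 0.0605) or VTA input 1 (0.25, 0.0675). Psme3ip1 differed by -0.11 and did not pass.

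Within the NAC samples alone, 6 of 42 genes rose (4.34% of all genes) and 1 fell (8.01% of all genes), with a median of 0.091 against -0.061 for all genes. Psmd8 rose by 0.56 (SE 0.087, adjusted p 0.00632), Psma7 by 0.48 (SE 0.12, adjusted p 0.031) and Psmd3 by 0.42 (SE 0.11, adjusted p 0.0398). Psmc1 rose by 0.40, Psmb7 by 0.40 and Psma3 by 0.38, and Psmd5 fell by 0.42 (SE 0.12, adjusted p 0.0493). All 12 core genes lay above 0 as deposited (39.8% of all genes), the lowest at 0.039. None of these 7 calls was kept without the second NAC pull-down, the first NAC input or the second NAC input. Some went when NAC pull-down 1 or either VTA input was left out. Each of these fits leaves 1 array in a group, and in each the calls over all genes tested became fewer too. The losses are thus not particular to the proteasome genes. Over the left-out arrays the difference of Psmd8 ran from 0.55 to 0.58 and that of Psmd5 from -0.51 to -0.33.

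Within the VTA samples, 10 of 42 genes were higher (5.44% of all genes) and 7 lower (25.9% of all genes), with a median of 0.011 against -0.15 for all genes. With the stricter filter, which drops Psmc3ip (0.53, SE 0.11), 9 were higher. The largest rises of the others were those of Psme2 at 0.66 (SE 0.16, adjusted p 0.0145), Psmb3 at 0.48 (SE 0.096, adjusted p 0.00726) and Psmc1 at 0.47 (SE 0.096, adjusted p 0.00776). Psmb1, Psmd3, Psme1, Psmd8, Psmd4 and Psmc3 rose by 0.31 to 0.43.

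Psmd5 fell by 1.08 (SE 0.12, adjusted p 0.00124) and Psmg1 by 0.76 (SE 0.11, adjusted p 0.00272), and both calls held without each array in turn. Psme4, Psmd10, Psmd1, Psme3 and Psmd14 fell by 0.39 to 0.48. The other calls were lost without the first VTA input, most of them also without the first VTA pull-down, and fewer without the second VTA input or pull-down. Each such fit leaves 1 array in a group. Without either VTA input or the first VTA pull-down, calls over all genes tested became fewer too. Such losses are therefore not particular to the proteasome genes. The median of the 42 genes ran from -0.014 to 0.014 over these fits. The first VTA pull-down held the lowest of the 8 values for 15 of the 42 genes, and for 31.2% of all genes tested.

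The NAC and VTA enrichments, which share no array, were set side by side over the 42 genes. Of these, 21 lay above 0 for both targets, 10 below 0 for both and 11 on opposite sides, which is 50%, 23.8% and 26.2%. Over all genes the shares were 22.3%, 53.4% and 24.3%. Of all genes tested, 39.8% lay above 0 for NAC and 29.1% for VTA. Across genes, which are not independent replicates, Pearson's r was 0.766 and Spearman's rho 0.755, against 0.694 and 0.668 over all 11712 genes. As deposited, Psmc1, Psmd3 and Psmd8 passed as higher and Psmd5 as lower for both targets. With centring on all probe sets, the NAC calls of Psmc1 (limma adjusted p 0.0665) and Psmd3 (0.064) were lost. The VTA calls of Psmd3 (0.0615) and Psmd8 (0.109) were lost there too. Psmc1, Psmd3 and Psmd8 kept both calls after quantile normalization and with centring on the genes tested. The NAC call of Psmd5 lay at the threshold (adjusted p 0.0493) and was lost after quantile normalization (0.0526), with centring on the genes tested (0.0605), with a gene's probe sets averaged (0.0516) and without the filter (0.175).

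**Figure D5:**
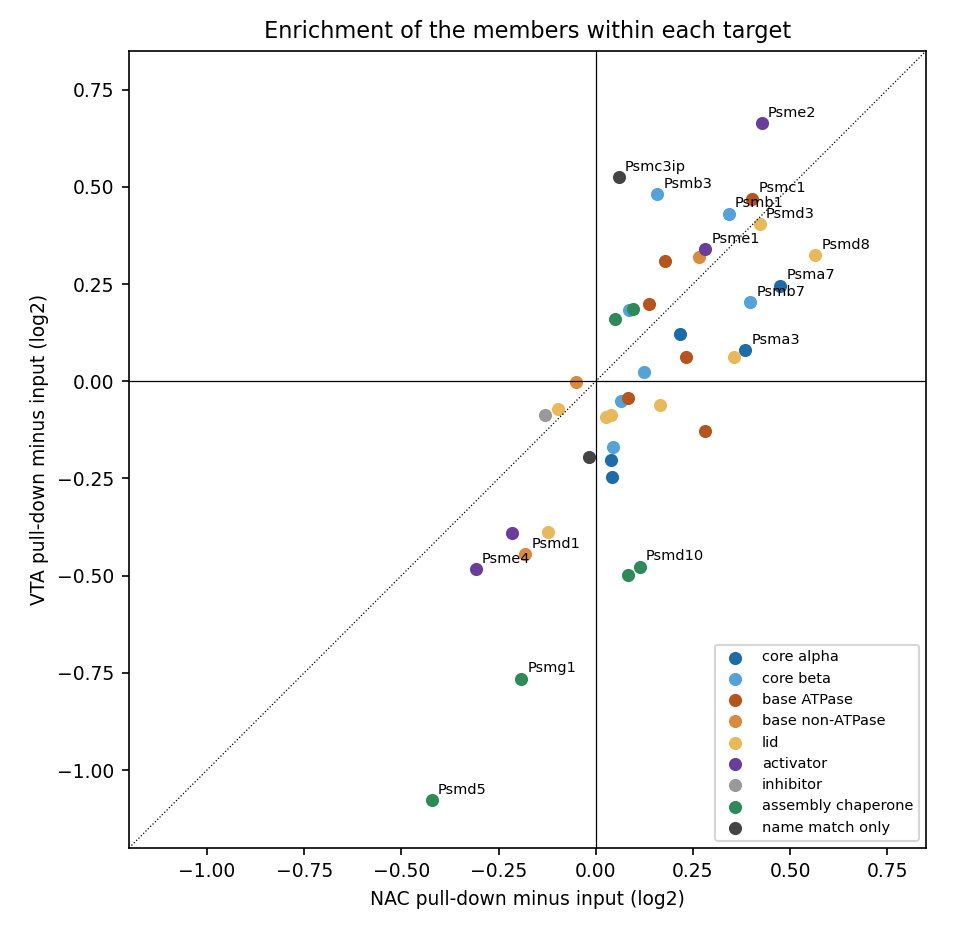
Each point is 1 of the 42 genes, with the log2 difference of pull-down minus input for NAC on the horizontal and for VTA on the vertical axis. Psmd5 at -0.42 and -1.08 lies lowest, and Psmc1 at 0.40 and 0.47 and Psmd3 at 0.42 and 0.40 lie high on both axes.

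VTA was then compared with NAC. Between the pull-downs, none of the 42 genes was higher (0.418% of all genes) and none lower (2.05% of all genes) by limma's adjusted p, and 4 had an unadjusted p under 0.05 (16.2% of all genes). These were Psmd5 at -0.51 (SE 0.12, adjusted p 0.0597), Psme1 at -0.38 (SE 0.099, adjusted p 0.0869), Psma3 at -0.25 (adjusted p 0.238) and Psmc5 at -0.23 (adjusted p 0.29). Both VTA pull-downs lay below both NAC pull-downs in 17 genes (28.8% of all genes) and above in 3 (15.4% of all genes). The median was -0.11, against -0.040 for all genes. Without the second VTA pull-down, Psmg3 and Psmd10 passed the threshold, 1 in each direction. Of the cell type markers, 4 of 6 for layer 5 pyramidal tract cells were higher in the VTA pull-downs, and their part in these values was not tested.

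Between the inputs, again none was called higher (0.12% of all genes) or lower (1.38% of all genes), and 3 had an unadjusted p under 0.05 (10.9% of all genes). Psme1 was at -0.43 (SE 0.099, adjusted p 0.078), Psmg1 at 0.46 (SE 0.11, adjusted p 0.102) and Psmb3 at -0.25 (adjusted p 0.388). The VTA inputs lay above the NAC inputs in 9 genes (34.3% of all genes) and below in 6 (12.4% of all genes). Other RNAs did differ between the inputs: Rpl10a was lower in VTA (-0.82, adjusted p 0.0133), so that its enrichment was 1.15 for NAC and 1.83 for VTA. The astrocyte gene Gfap (-0.84, adjusted p 0.00144) and the complement genes of microglia C1qa (-0.91), C1qb (-0.88) and C1qc (-0.83) were lower too. The part of these shifts in the values above was not tested. Psmg1 passed when either VTA pull-down was left out of the fit or when the fit held the inputs alone.

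The difference of enrichment between VTA and NAC, tested as an interaction, also gave no call for the 42 genes by limma's adjusted p (0.00854% of all genes higher, 0.0598% lower). An unadjusted p under 0.05 was found for 7 (12% of all genes), Psmc3ip among them. Psmd5 had -0.66 (SE 0.17, adjusted p 0.268), Psmg1 -0.57 (SE 0.16, adjusted p 0.272) and Psmd10 -0.59 (SE 0.22, adjusted p 0.35). Psmb3, at 0.32, lay on the other side. The calls made for only one target are therefore not shown to differ between targets.

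The interferon-inducible core genes, which replace the catalytic subunits Psmb5, Psmb6 and Psmb7 in the immunoproteasome, did differ between VTA and NAC, 2 of 3 of them past the threshold. Psmb8 measured 7.52 and 7.72 in the NAC pull-downs, 6.43 and 6.32 in the VTA pull-downs, 7.77 and 7.69 in the NAC inputs, and 6.17 and 6.36 in the VTA inputs. Every VTA array was below every NAC array, with VTA minus NAC at -1.25 between pull-downs (adjusted p 0.000144) and -1.47 between inputs (adjusted p 3.49e-05). Psmb9 was lower in VTA too, at -1.02 (adjusted p 0.00886) and -1.27 (adjusted p 0.00214). Psmb10 differed by -0.21 and -0.15, without a call. Pull-down and input did not separate for these genes, with averaged differences of 0.0019 for Psmb8, 0.087 for Psmb9 and 0.16 for Psmb10, none past the threshold. Of 8 microglial markers, 3 were lower and 1 higher in VTA, with the same counts for pull-downs and for inputs, and their part in the Psmb8 and Psmb9 values was not tested.

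Promoter sequence was available from RefSeq (mouse assembly GRCm38.p6) for 38 of the 46 genes. The 250 bases before each start were searched on both strands for TGACNNNGC, the core of the antioxidant response element, which the proteasome's known transcriptional activators Nfe2l1 and Nfe2l2 bind. It was present for 5 of 38 genes, 13.16%, against 11.99% of 17492 protein-coding genes. The 5 are shown because 2 of them code for the catalytic subunits that missed the threshold, and none of the 5 was called in the averaged comparison. Capitals mark the match on either strand, with up to 40 bases beside it that lie before the start.
Psmb5 (chr14:54617996-54618082, minus strand): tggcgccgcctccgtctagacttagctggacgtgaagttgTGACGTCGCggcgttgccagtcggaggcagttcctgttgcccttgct
Psmb6 (chr11:70525308-70525356, plus strand): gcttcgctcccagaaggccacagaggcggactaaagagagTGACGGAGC
Psmc6 (chr14:45329574-45329645, plus strand): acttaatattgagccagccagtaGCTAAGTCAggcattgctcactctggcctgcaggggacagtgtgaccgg
Psmd12 (chr11:107479278-107479329, plus strand): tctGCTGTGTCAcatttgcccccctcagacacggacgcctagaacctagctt
Psmd9 (chr5:123228119-123228189, plus strand): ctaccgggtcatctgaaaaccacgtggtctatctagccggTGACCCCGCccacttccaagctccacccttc

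The matches begin 47 bases before the start in Psmb5, 9 in Psmb6, 31 in Psmd9, 227 in Psmc6 and 247 in Psmd12. Psmb5 at 0.13, Psmb6 at -0.061, Psmc6 at 0.15, Psmd12 at -0.033 and Psmd9 at 0.10 were the pull-down differences of these genes. A match is a run of letters and not a shown binding site.

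The 150 bases before the start follow for the largest rises with 1 promoter entry, Psmd8 and Psmc1, and for the largest falls, Psmd5 and Psmg1. Capitals mark GGGCGG, the GC box bound by Sp1, or CCAAT, the box bound by NF-Y, on either strand.
Psmd8 (chr7:29180674-29180823, minus strand): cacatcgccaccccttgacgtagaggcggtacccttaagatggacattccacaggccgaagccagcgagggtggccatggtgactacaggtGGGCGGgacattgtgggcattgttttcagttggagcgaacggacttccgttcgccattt
Psmc1 (chr12:100110052-100110201, plus strand): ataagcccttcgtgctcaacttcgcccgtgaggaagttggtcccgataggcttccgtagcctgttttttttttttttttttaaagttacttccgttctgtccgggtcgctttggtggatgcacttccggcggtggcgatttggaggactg
Psmd5 (chr2:34870963-34871112, minus strand): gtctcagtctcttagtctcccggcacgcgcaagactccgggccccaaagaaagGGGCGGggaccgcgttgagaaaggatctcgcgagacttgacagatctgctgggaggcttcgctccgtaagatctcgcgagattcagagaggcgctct
Psmg1 (chr16:95990961-95991110, minus strand): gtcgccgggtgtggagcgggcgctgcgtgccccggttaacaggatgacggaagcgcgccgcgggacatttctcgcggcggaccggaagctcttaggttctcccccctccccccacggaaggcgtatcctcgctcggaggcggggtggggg

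Psmd8 and Psmd5, which moved in opposite directions, each hold 1 GGGCGG in this window, and Psmc1 and Psmg1 hold neither motif. Over the 250 bases, GGGCGG was found for 21 of 38 genes (55.3%, against 45.8% of all), CCAAT for 15 (39.5% against 39.5%) and TATAAA, the TATA box, for 3 (7.89% against 13.7%). These shares describe the letters of the windows, and no test was made on them.

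Other genes of the pathway were read from a list of 55 names, of which 40 were measured and tested. In the averaged comparison 5 rose and 14 fell, 12.5% and 35% beside 9.6% and 32% of all genes, with a median of -0.079 beside -0.11. These counts turn with the scaling: 4 and 15 with centring on all probe sets, 9 and 9 after quantile normalization, and 13 and 6 with centring on the genes tested. Sem1, a lid subunit whose symbol lies outside the pattern used, rose by 0.68 (SE 0.075, adjusted p 0.00035), more than any of the 42 genes. Pomp, the chaperone that drives maturation of the core particle, rose by 0.36 (adjusted p 0.00777).

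Of the enzymes that pass on ubiquitin, Ube2d2a rose by 0.42 (adjusted p 0.00156), Ube2s by 0.36 (adjusted p 0.00387) and Ube2d1 by 0.29. Ufd1, which works with the unfoldase Vcp, fell by 0.61 (adjusted p 0.00136), and the ubiquitin ligase gene Ube3c by 0.38 (adjusted p 0.00589). Nfe2l2 fell by 0.47 (adjusted p 0.00473), Ngly1, the deglycosylase that helps to activate Nfe2l1, by 0.44 (adjusted p 0.0012), and Uba6, a ubiquitin-activating enzyme, by 0.37. Tpp2, a peptidase that acts after the proteasome, fell by 0.37 (adjusted p 0.00995).

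All of these except Ube2d1 and Uba6 kept their call under the 3 scalings and without each array. Nfe2l1 fell by 0.19 (adjusted p 0.0371), a call kept under 1 of 3 scalings and 1 of 8 left-out arrays. The proteasome-bound deubiquitinases Usp14 and Uchl5 differed by -0.047 and 0.074, without a call. Between the pull-downs, 1 of the 40 genes was called: Zfand2a, a stress-induced proteasome-binding protein, was lower in VTA (-0.55, adjusted p 0.0161).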

How the data were processed

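Affymetrix arrays of 4 groups of 2 gave 1 value per probe set for 41345 probe sets. The deposited values are on a log2 scale and, per the submitters' processing notes, the authors made them with Transcriptome Analysis Console; the sources used here give neither its version nor its background correction and normalization. Groups came from the labels' source names. The platform annotation named the probe sets, 23521 with 1 symbol, and all 46 proteasome symbols matched RefSeq by Entrez identifier.

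In limma 3.58.1 (R 4.3.3), 1 model with a mean per group covered all 8 arrays (lmFit, contrasts.fit, eBayes; 4 residual and 6.07 prior degrees of freedom), after a filter that kept 11712 genes with at least 2 arrays above the array's median over named genes. Tests were two-sided, adjusted by Benjamini-Hochberg over these genes, with 0.05 as the threshold. SE is the fit's standard error, and intervals are 95% intervals. The fit was tested on simulated data. Arrays carry no depth, and their number limits the precision.

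The genes and lists were chosen with earlier results of these data known. Genes given in full were the 4 largest calls of each comparison, Psmb5, Psmb6, Psmb7 and genes whose probe sets disagreed; Psmc1, Psme1, Psmb8 and Psme4 are described beside them. From the pathway list the 5 genes called higher and the 6 largest falls are named, with Nfe2l1, Usp14 and Uchl5; Adrm1 was not analysed here. Other scalings, filters, probe sets, blocks and left-out arrays were tried.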

Additional observations from a re-analysis of the deposited data

How the results depend on the processing

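Of 1028 values of single named genes under other settings, 955 kept their side of the threshold, 56 lost a call and 17 gained one. The 1028 take in the comparisons of VTA with NAC, where none of these genes was called as deposited. Many of the 955 thus had no call to lose, and their number does not measure how stable the calls were. The sign changed in 33, of which 0 were called under either setting. The counts moved more, and the causes were not tested beyond what follows. Without the filter all 22180 genes were tested, and the averaged comparison then gave 3 lower among the proteasome genes (2395 of all genes). NAC gave 0 higher and 0 lower (49 and 56 of all genes), and VTA 3 higher and 2 lower (552 and 1355 of all genes). Centring on all probe sets left 2 higher for NAC (331 of all genes) and 5 for VTA (375 of all genes). Quantile normalization left 0 lower for NAC (803 of all genes) and 3 for VTA (1846 of all genes). Centring on the genes tested, chosen after seeing the data, gave 21 higher and 3 lower in the averaged comparison (2498 and 1753 of all genes). The median there was 0.21, against 0.026 for all genes. It gave 11 higher and 0 lower for NAC (905 and 643 of all genes). For VTA 2 were lower (1083 of all genes), with a median of 0.21 against 0.041 for all genes. The median difference of enrichment was -0.0058, against 0.027 for all genes. Averaging a gene's probe sets left 0 lower for NAC (859 of all genes). Fitting only a comparison's own arrays gave 6 higher for VTA (483 of all genes) and 1 higher between inputs (50 of all genes).

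Leaving out each array gave 11 to 15 higher, 3 to 7 lower and medians of 0.036 to 0.10 in the averaged comparison. NAC ran from 0 to 7 higher and 0 to 1 lower, with medians of 0.050 to 0.18. VTA ran from 0 to 9 higher and 2 to 8 lower, with medians of -0.014 to 0.014. Between pull-downs 0 to 1 were higher and 0 to 1 lower, between inputs 0 to 1 higher. A group left with 1 array was assumed to vary like the others. In these 3 comparisons the number of calls changed between the fits, both among the proteasome genes and over all genes tested.

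With the replicate number as a block, 14 rose and 6 fell in the averaged comparison (1205 and 3883 of all genes). For NAC 7 rose and 0 fell (561 and 1017 of all genes), and for VTA 10 and 6 (699 and 3191 of all genes). Psmd5 lost its NAC call under the block (-0.42, adjusted p 0.0558). Deviations of same-numbered arrays correlated at 0.30 for NAC and -0.022 for VTA, so the numbers are not shown to pair the samples. Signal over background was not given, and genes near the array medians, such as Psmb3 and Psmc3ip, are the least certain in size.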

Other observations

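Probe sets shared between a proteasome gene and another symbol were left out of the comparisons. The brighter of the pair named for Psma4 and AY074887 measured 8.9975 and 9.128 in the NAC pull-downs, 8.74 and 8.99 in the VTA pull-downs, 8.94 and 8.91 in the NAC inputs, and 8.97 and 8.85 in the VTA inputs. Pull-down and input overlapped, with an averaged difference of 0.048 (SE 0.078, limma adjusted p 0.643). The other probe set of that pair lay between 3.75 and 4.36, under the array medians.

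A probe set named for Psmd1 and Armc9 differed by -0.011 (SE 0.064, adjusted p 0.904), while the probe set of Psmd1 alone was lower in the pull-downs. A probe set named for Psme2 and a pair of Riken genes differed by 0.032 (SE 0.12, adjusted p 0.843), while that of Psme2 alone was higher. The dim Psma5 measured 4.34 to 4.68 in the pull-downs and 4.15 to 4.35 in the inputs, below the array medians, and was not tested with the others.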
